A study of Homo sapiens with 12 samples.

Results

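The early response of shLAD1 cells to epidermal growth factor (EGF) was followed in 4 of the 12 libraries of the series, and described over all genes in them. The 2 libraries of shLAD1 cells given 50 ng/ml EGF for 40 min were compared with the 2 libraries of shLAD1 cells at 0 min, serum-starved overnight and given no EGF. Each 40 min library was set against the 0 min library with the same replicate number. The cells were HCC70, a basal-like, triple-negative human breast cancer line, and stably expressed an shRNA that targets LAD1 in both groups, so the 0 min cells carried it too. The other 8 libraries were 2 of shLAD1 cells at 240 min of EGF and 6 of HCC70 cells with a scramble shRNA at 40, 240 and 0 min. Poly-A RNA was sequenced in all of them.

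EGF binds EGFR, a receptor tyrosine kinase that is abundant in basal-like breast cancer cells, and the receptor signals through RAS, RAF, MEK and ERK to the nucleus. There, factors such as serum response factor (SRF) and its ETS-family partners are already present, so a first set of genes, the immediate early genes, can be transcribed without new protein synthesis. Many of them encode transcription factors, and others encode phosphatases, receptor inhibitors and RNA-binding proteins that turn the same signal down. LAD1 encodes ladinin-1, a protein of epithelial cells. The title of the series presents it as a filamin-binding regulator of the actin changes that follow EGF.

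Because the labels name 1 shRNA against LAD1, its other effects and those of losing LAD1 cannot be told apart. Likewise EGF, elapsed time and handling cannot be told apart, since no library at 40 min lacked EGF. LAD1 RNA stood at 15.9% of its scramble level at 0 min, with 978 ± 160 normalized counts in shLAD1 cells and 6165 ± 340 in scramble cells (SD, n = 2 each; log2 difference -2.66 ± 0.13, limma adjusted p = 0.00012, in a comparison that called 1.56% of genes). At 40 min it stood at 17.5%. The 4 libraries compared held 12588422 to 13688119 reads, and all 12 held 12428618 to 16721013. ACTB took most reads in every library. All 12 basal epithelial marker genes were present, among them KRT5 with 56933 and 78195 normalized counts at 40 min, against 48001 and 64487 at 0 min. The basal marker TP63 was low, with 26.1 and 16.8 at 40 min, against 19.5 and 22.4 at 0 min. Of 10 luminal markers, PGR and TFF3 were at 0 in all 4 libraries, and ESR1 was low (27.0 and 25.1 at 40 min). Other luminal markers were well expressed. At 40 min XBP1 had 2984 and 3243 normalized counts, AGR2 2448 and 3124.5, ERBB2 2318 and 2566, GATA3 1355 and 1428 and FOXA1 1440 and 2631. Of 7 fibroblast markers 6 stayed under 10 normalized counts, with COL1A2, DCN and LUM at 0 and a summed level of 705.7 to 898.0 at 40 min and 647.9 to 814.2 at 0 min that was nearly all COL1A1. Of 6 immune markers 3 (PTPRC, CD3E and LYZ) stayed under 10, with a sum over the 6 of 1676 to 2654 at 40 min and 1901 to 2645 at 0 min. That sum was nearly all CD68 (1081 and 1479.5 at 40 min) and CD14 (547 and 1117 at 40 min). Of 5 endothelial markers KDR was at 0, and their sum was 37.7 to 41.9 at 40 min and 29.8 to 36.6 at 0 min.

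The response at 40 min was mostly a rise of transcripts. Of 13950 genes tested, 561 rose and 105 fell, which is 4.77% of the genes tested (4.02% higher and 0.753% lower). Counts of called members in the gene lists below are to be read against these shares. A count near them is no result about its list. Among the genes that rose, 140 did so by more than 2-fold, 59 by more than 4-fold and 11 by more than 16-fold, while 337 rose by less than 1.5-fold. Among those that fell, 11 did so by more than 2-fold. The median log2 change was 0.48 for the risen genes, -0.40 for the fallen genes and -0.0033 for all genes tested. In bulk RNA, a change in the number of cells expressing a gene cannot be told from a change in RNA per cell.

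Each change is the log2 change at 40 min minus 0 min with the standard error of a limma-trend fit on log2(normalized count + 1), n = 2 libraries per group. A gene is called where its p, adjusted by Benjamini and Hochberg over all genes tested, is under 0.05. The fit pairs libraries of the same number. The labels do not say whether the replicates were separate cultures, so the p-values measure a spread between libraries only, which may be technical. That spread was estimated from all 12 libraries and drawn toward a trend over all genes (4 residual and a median of 19 prior degrees of freedom). A gene's standard error is therefore the same for its changes in shLAD1 and scramble cells, and is not the spread of the 4 libraries alone. A fit without that pairing, named the unpaired fit below, called 142 genes higher and 3 lower (1.02% and 0.0215%, together 1.04% of the genes tested), and 139 and 3 of these were also called by the paired fit. At 40 min both libraries lay above both 0 min libraries for 466 of the 561 risen genes. They lay below both for 93 of the 105 fallen genes. Over all genes tested the groups did not overlap for 12.8% in the higher and 11.7% in the lower direction. Calls and the rule for named genes favour such separation, so it is no further support for a gene named below. Scaling moved the balance of calls. Rises made up 84.2% of the calls with the authors' size factors. They made up 54.5% when libraries were scaled to their total count, with 436 genes higher and 364 lower, and 74.5% (462 and 158) when scaled to the upper quartile. Leaving out 0 min replicate 2 left 349 higher and 32 lower, and leaving out 40 min replicate 1 left 371 higher and 45 lower. Of the 561 risen genes 265 were called whichever of the 4 libraries was left out, and of the 105 fallen genes 10.

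**Figure D1:**
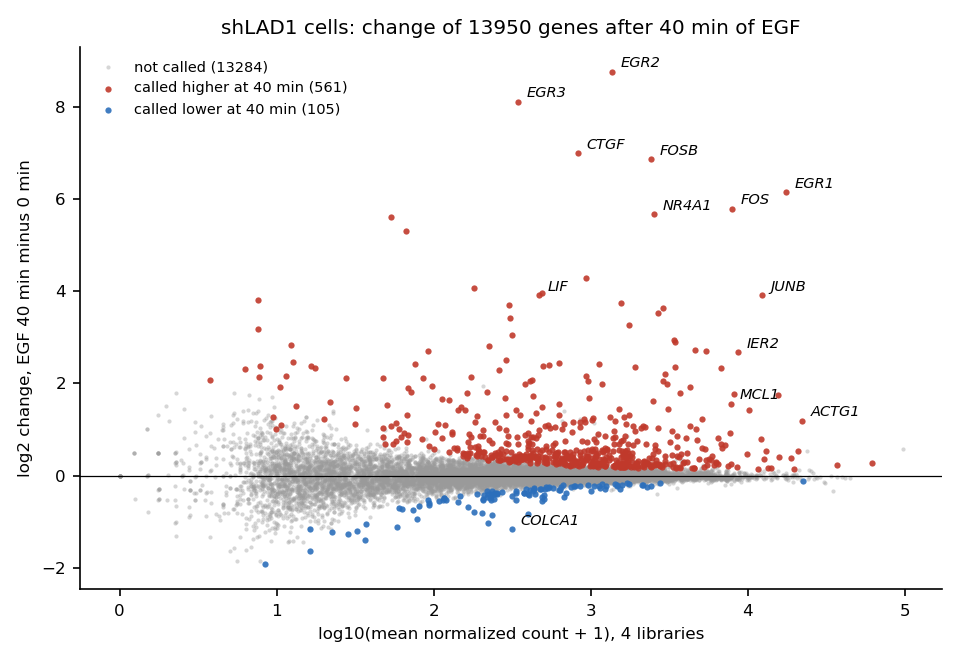
Log2 change in shLAD1 cells at 40 min of EGF minus 0 min (y axis) against the log10 of the mean normalized count + 1 of the 4 libraries (x axis), 1 point per tested gene, with 561 genes called higher in red, 105 called lower in blue and the rest in grey. The risen genes reach 8.76 on the log2 scale (EGR2), and 11 of the 105 fallen genes fell by more than 2-fold.

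The EGR zinc finger transcription factors EGR2 and EGR3 gave the largest rises of the named genes, EGR1 rose less than CTGF and FOSB, and the NAB corepressors were not called. EGR2 had 2088 and 3368 normalized counts at 40 min, against 5.13 and 5.09 at 0 min, a log2 change of 8.76 ± 0.35 (limma adjusted p = 1.1e-07). EGR1, which at 40 min took more reads than any other called gene but KRT5 and KRT19, had 31851 and 37098 at 40 min, against 358 and 646 at 0 min (6.16 ± 0.34, limma adjusted p = 0.00151), and was not called when shLAD1 libraries alone were fitted. EGR3 had 282 and 1096 at 40 min, against 0 and 3.05 at 0 min. For these 3 genes both 40 min libraries stood far above both 0 min libraries. EGR3 rested on 3 reads at 0 min against 1338 at 40 min, a ratio per total reads of 423 with an exact 95% binomial interval of 144 to 2054 that covers counting error only. NAB1 (0.12) and NAB2 (0.22), which bind EGR factors and repress their targets, were not called (limma adjusted p = 0.219 and 0.382), and EGR4 was too low to test.

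SRF binds a short element, the CArG box, in the promoters of EGR genes, of actin genes and of its own gene. Promoters of 6 risen genes, picked after their values and motifs were seen, are shown because they hold that element in genes of different rises: EGR2 and EGR1 were among the largest, and SRF, ACTG1, FHL2 and TPM4, from the SRF and MRTF list, rose less but above the median risen gene. They are the 250 bases before the start given by RefSeq on GRCh38.p14, read 5′ to 3′ on the gene's strand, with each CArG box in capitals.
EGR2, chr10:62816367-62816616, minus strand: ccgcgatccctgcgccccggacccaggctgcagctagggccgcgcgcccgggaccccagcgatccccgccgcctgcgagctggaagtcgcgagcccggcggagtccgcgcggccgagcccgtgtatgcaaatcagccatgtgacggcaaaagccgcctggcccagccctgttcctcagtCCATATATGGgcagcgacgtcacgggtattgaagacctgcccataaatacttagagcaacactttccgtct
EGR1, chr5:138465229-138465478, plus strand: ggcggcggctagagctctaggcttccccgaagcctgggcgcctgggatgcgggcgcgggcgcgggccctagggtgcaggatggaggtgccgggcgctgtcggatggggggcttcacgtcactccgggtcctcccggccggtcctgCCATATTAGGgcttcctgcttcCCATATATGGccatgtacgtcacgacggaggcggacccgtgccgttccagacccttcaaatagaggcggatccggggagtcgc
SRF, chr6:43171019-43171268, plus strand: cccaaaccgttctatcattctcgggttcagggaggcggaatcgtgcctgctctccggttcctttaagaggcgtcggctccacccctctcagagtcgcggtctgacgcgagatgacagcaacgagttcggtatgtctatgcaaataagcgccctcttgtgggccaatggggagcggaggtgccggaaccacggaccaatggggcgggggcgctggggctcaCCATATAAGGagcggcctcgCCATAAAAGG
ACTG1, chr17:81512800-81513049, minus strand: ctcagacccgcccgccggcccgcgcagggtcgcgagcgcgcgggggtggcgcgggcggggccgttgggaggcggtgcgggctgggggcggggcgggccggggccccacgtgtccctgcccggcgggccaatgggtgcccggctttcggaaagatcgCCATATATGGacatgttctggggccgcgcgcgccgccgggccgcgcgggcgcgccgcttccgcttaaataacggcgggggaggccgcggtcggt
FHL2, chr2:105438514-105438763, minus strand: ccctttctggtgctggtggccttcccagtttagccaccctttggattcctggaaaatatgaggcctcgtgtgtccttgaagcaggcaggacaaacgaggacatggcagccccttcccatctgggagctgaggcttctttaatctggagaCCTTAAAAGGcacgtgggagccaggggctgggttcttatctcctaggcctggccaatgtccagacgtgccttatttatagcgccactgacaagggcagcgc
TPM4, chr19:16067288-16067537, plus strand: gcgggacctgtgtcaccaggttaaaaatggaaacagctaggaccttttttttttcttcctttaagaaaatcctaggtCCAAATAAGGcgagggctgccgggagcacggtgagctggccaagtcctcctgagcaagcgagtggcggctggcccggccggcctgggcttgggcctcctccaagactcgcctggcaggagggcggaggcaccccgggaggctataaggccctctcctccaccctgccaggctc
The first base of the box lies at -71 from the start in EGR2, at -105 and -83 in EGR1, at -30 and -10 in SRF, at -94 in ACTG1, at -101 in FHL2 and at -173 in TPM4. Where a gene has several starts, the window with the box is shown. The motif is palindromic, so a search of 1 strand covers both. A CArG box occurs in 407 of the 35116 promoter windows of that length, or 1.16%. The promoter table covers 77.4% of the risen genes, too few for a share over the risen set, and a match says only that the letters are there.

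AP-1, the dimer of FOS and JUN family proteins, rose as a group: 6 of its 7 subunit genes were called higher and 0 lower, with a median log2 change of 3.91. FOS had 15050 and 16135 normalized counts at 40 min, against 269 and 292 at 0 min (5.79 ± 0.10, limma adjusted p = 3.15e-11). FOSB had 3482 and 6082 at 40 min, against 28.8 and 51.9 at 0 min (6.86 ± 0.13). JUNB, a JUN family member that can restrain JUN, had 18863 and 27535 at 40 min, against 1431 and 1597 at 0 min (3.91 ± 0.12). In these 3 genes the groups did not overlap, and FOS libraries of the same time differed little. FOSL1 rose by 4.29 ± 0.36, JUN by 2.71 ± 0.20 and FOSL2 by 0.58 ± 0.09. JUND stood at 0.18 ± 0.07 (limma adjusted p = 0.25), with 3313 and 3335 normalized counts at 40 min and 3386 and 2552 at 0 min; replicate 1 differed little between the times and replicate 2 was higher at 40 min. FOSL2 was not called in the unpaired fit. FOSL1 was not called without 40 min replicate 1 (4.56) or 40 min replicate 2 (4.02), and FOSL2 was not called without 0 min replicate 1 (0.58) or 0 min replicate 2 (0.58).

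All 3 NR4A orphan nuclear receptors, transcription factors with no known required ligand, rose. NR4A1 had 3892 and 6065 normalized counts at 40 min, against 76.0 and 116 at 0 min (5.68 ± 0.11, limma adjusted p = 1.7e-18). NR4A3 was rare at 0 min, with 1.03 and 4.07, and had 105 and 151 at 40 min (5.31 ± 0.41). NR4A2 rose by 1.69 ± 0.19, with 1637 and 1357 at 40 min and 440.5 and 482 at 0 min. In each of these genes the lower 40 min library was above the higher 0 min library. Of the 4 IER genes, a family named for its immediate early response, 3 rose and 0 fell (median 1.75). IER3, which protects cells from some death signals, had 4564 and 7451 at 40 min, against 634 and 918 at 0 min (2.93 ± 0.05). IER2 rose by 2.68 ± 0.04 (limma adjusted p = 4.34e-23) and IER5 by 0.81 ± 0.08, although the unpaired fit did not call IER5. IER5L had 725 and 788 at 40 min and 846 and 676 at 0 min, with overlapping groups and no call. NR4A2 was not called without 0 min replicate 1 (1.66) or 0 min replicate 2 (1.72).

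Among 11 ATF and small MAF genes tested 5 rose and 0 fell (median 0.16). MAFF, a small MAF protein that lacks a transactivation domain, had 933 and 914 normalized counts at 40 min, against 62.6 and 53.9 at 0 min (3.97 ± 0.11, limma adjusted p = 4.21e-18). ATF3, a stress- and growth-factor-inducible bZIP factor, rose by 3.26 ± 0.24, MAFK by 0.97 ± 0.05, MAFG by 0.42 ± 0.08 and JDP2 by 0.27 ± 0.07; of these 5, MAFF and ATF3 were called in the unpaired fit. Of 13 KLF genes 6 rose and 1 fell (median 0.28). KLF6 had 12192 and 10165 at 40 min, against 2715 and 1789 at 0 min (2.34 ± 0.15), KLF2 rose by 1.81 ± 0.27, KLF10 by 1.11 ± 0.08, KLF3 by 0.87 ± 0.06, KLF4 by 0.50 ± 0.06 and KLF7 by 0.48 ± 0.13. KLF5, a proliferation-linked epithelial factor, fell to 2246 and 2923 at 40 min, against 2608 and 3189.5 at 0 min (-0.17 ± 0.04), with overlapping groups. The unpaired fit called 3 KLF genes higher and 0 lower. MAFG was not called without 0 min replicate 2 (0.35) or 40 min replicate 1 (0.40).

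MYC, which drives growth genes, had 4312 and 3282 normalized counts at 40 min, against 1195 and 1238 at 0 min (1.63 ± 0.14, limma adjusted p = 0.0029). Of the 11 genes of its dimerization network tested 2 rose and 1 fell (median 0.05). MXD1, which competes with MYC for its partner MAX, rose by 0.39 ± 0.07, and MXD3, of the same family, fell to 306 and 270.3 at 40 min, against 362 and 388 at 0 min (-0.38 ± 0.10); neither was called in the unpaired fit. Of 16 ETS factors 4 rose and 0 fell (median 0.06). ELF3, an epithelial ETS factor, had 13855 and 17018 at 40 min, against 7982 and 9755 at 0 min (0.80 ± 0.05). ETS2 rose by 0.94 ± 0.07, and the repressors ETV3 and ERF rose by 0.68 ± 0.10 and 0.25 ± 0.05, both without a call in the unpaired fit. Among 78 homeobox, SOX, FOX and POU genes 5 rose and 4 fell (median -0.07). SOX9 rose by 0.86 ± 0.04, FOXQ1 by 1.10 ± 0.08, FOXA1 by 0.50 ± 0.06, FOXC1 by 0.32 ± 0.06 and FOXN2 by 0.45 ± 0.10. OTX1, HOXB5, SOX4 and FOXD2 fell, the last 2 by 0.22 and 0.34 on the log2 scale; FOXN2, SOX4 and FOXD2 are outside the rule for named genes. Of these 9 the unpaired fit called SOX9 and OTX1. MXD3 was not called without 0 min replicate 1 (-0.47), 0 min replicate 2 (-0.29) or 40 min replicate 2 (-0.27), and ERF was not called without 0 min replicate 2 (0.23) or 40 min replicate 2 (0.18).

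**Figure D2:**
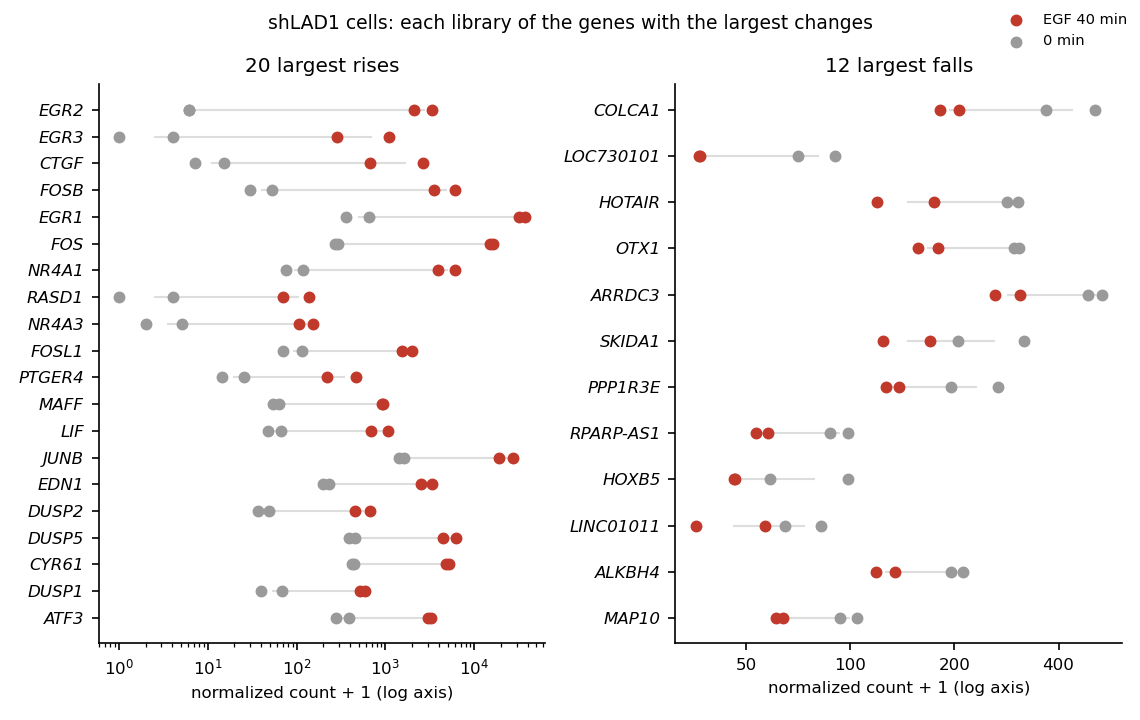
Normalized count + 1 (log axis) of each shLAD1 library for the 20 genes with the largest rises (left) and the 12 with the largest falls (right) among those named by rule, with the 2 libraries at 40 min of EGF in red and the 2 at 0 min in grey, joined between the group means. The rises span up to several orders of magnitude, while the falls stay within a narrow range. The rule takes only genes whose groups do not overlap, so their separation here is no result.

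Phosphatases that switch off MAP kinases rose early. Of 10 DUSP genes 6 rose and 0 fell, with a median log2 change of 1.85. DUSP5, a nuclear ERK phosphatase, had 4498 and 6178 normalized counts at 40 min, against 458 and 387 at 0 min (3.64 ± 0.17, limma adjusted p = 0.000376). DUSP1 had 596 and 523 at 40 min, against 67.8 and 38.7 at 0 min (3.42 ± 0.17), and DUSP2 666 and 452 at 40 min, against 48.3 and 35.6 at 0 min (3.69 ± 0.14). DUSP6, a cytoplasmic ERK phosphatase, rose by 2.80 ± 0.22, DUSP4 by 2.28 ± 0.15 and DUSP8 by 1.41 ± 0.15, with DUSP8 not called in the unpaired fit. Both 40 min libraries lay above both 0 min libraries for 7 of the 10 genes tested, beside 12.8% of all genes tested.

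Of 17 inhibitors at the receptor and Sprouty level 6 rose and 0 fell (median 0.13). ERRFI1, which binds the EGFR kinase domain and inhibits it, had 5219.9 and 6238 normalized counts at 40 min, against 1204 and 1028 at 0 min (2.36 ± 0.12, limma adjusted p = 0.000102). SPRY2 rose by 1.32 ± 0.10, the low-count SPRY4 by 1.51 ± 0.35, PHLDA1 by 1.44 ± 0.18, SOCS3, an inhibitor of cytokine receptors, by 1.89 ± 0.37 and LRIG3 by 0.43 ± 0.12. ERRFI1 and SPRY2 were the 2 called in the unpaired fit. EGFR itself had 2189.5 and 3058 at 40 min and 2209.7 and 3222 at 0 min (-0.044 ± 0.08, limma adjusted p = 0.872), and replicate 1 was the lower library at both times. ERBB2 (-0.007 ± 0.05) and ERBB3 (-0.067 ± 0.05) were not called either. SPRY4 was not called without 0 min replicate 1 (1.20), 40 min replicate 1 (1.52) or 40 min replicate 2 (1.51), and PHLDA1 was not called without 40 min replicate 1 (1.48) or 40 min replicate 2 (1.39).

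RNA-binding proteins that shorten the life of short-lived transcripts rose with them. Of 10 mRNA decay and anti-proliferative genes 6 rose and 0 fell (median 0.81). ZFP36, which binds AU-rich elements and recruits deadenylases, had 5238 and 6883 normalized counts at 40 min, against 807 and 799.9 at 0 min (2.90 ± 0.07, limma adjusted p = 2.07e-12). The endonuclease ZC3H12A rose by 1.99 ± 0.09, ZFP36L2 by 0.97 ± 0.04, ZFP36L1 by 0.93 ± 0.04, TOB1 by 1.16 ± 0.14 and TOB2 by 0.18 ± 0.05, with TOB2 not called in the unpaired fit. BTG2, another anti-proliferative gene, stood at 0.11 ± 0.16 and was not called (limma adjusted p = 0.834).

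**Figure D3:**
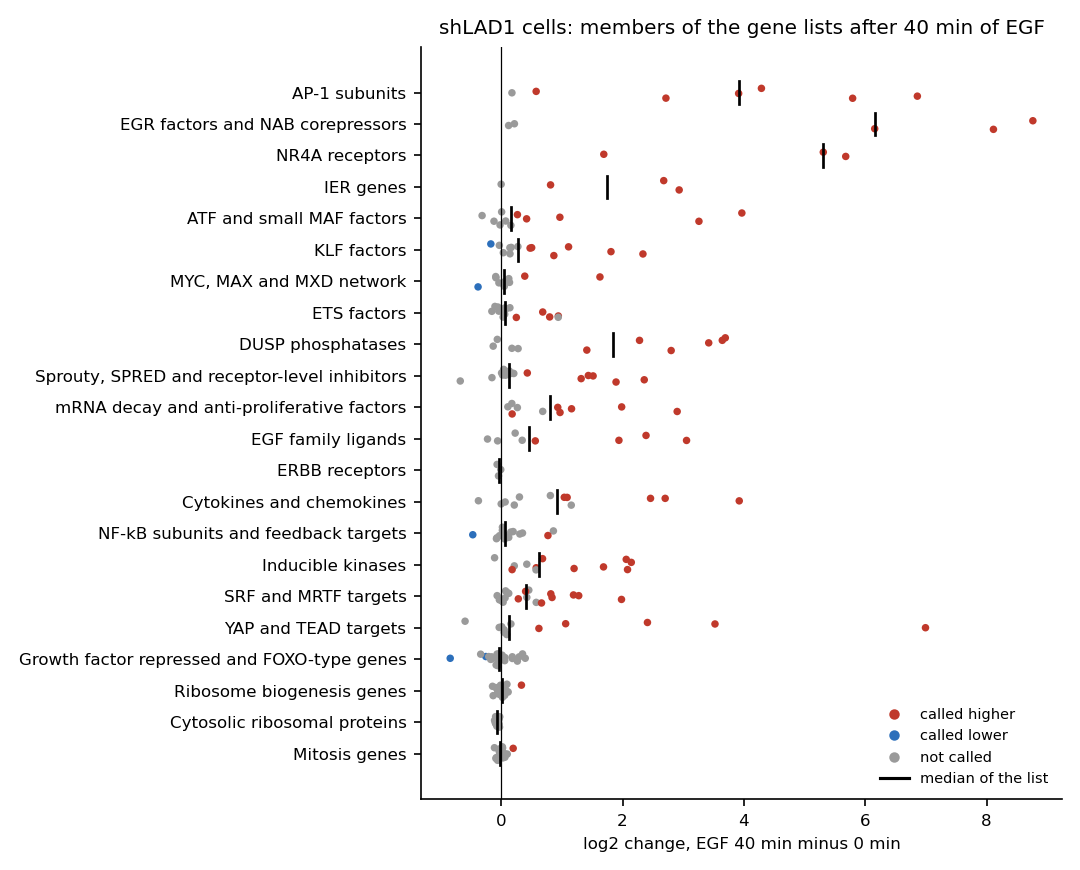
Log2 change in shLAD1 cells at 40 min of EGF minus 0 min (x axis) of each tested member of the gene lists shown (rows), 1 point per gene, called higher in red, called lower in blue and not called in grey, with the list's median as a black bar. The medians of the AP-1, EGR and NR4A lists lie farthest to the right. Those of the ribosomal protein, ribosome biogenesis and mitosis lists lie near 0, with every ribosomal protein gene slightly below it.

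Ligands of the receptor were among the risen genes. Of 8 EGF family ligands tested 4 rose and 0 fell (median 0.45). HBEGF, a membrane-tethered ligand of EGFR and ERBB4, had 569.6 and 545 normalized counts at 40 min, against 81.1 and 53.9 at 0 min (3.05 ± 0.15, limma adjusted p = 4.9e-11). EREG had 101 and 209 at 40 min, against 30.8 and 44.8 at 0 min (1.94 ± 0.19), and AREG, with few reads, had 18.3 and 35.6 at 40 min, against 4.11 and 4.07 at 0 min (2.39 ± 0.38). In all 3 genes the 40 min libraries were the higher ones. EPGN rose by 0.56 ± 0.08, but replicate 2 at 40 min (452) lay below replicate 1 at 0 min (638) and the unpaired fit did not call it. TGFA stood at 0.23 ± 0.07 (limma adjusted p = 0.083).

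Of 12 cytokine and chemokine genes 5 rose and 0 fell (median 0.93). LIF, a cytokine of the interleukin 6 family, had 690.3 and 1077 normalized counts at 40 min, against 47.2 and 66.2 at 0 min (3.92 ± 0.10, limma adjusted p = 1.7e-18). CXCL8, a neutrophil chemoattractant, had 140.0 and 174 at 40 min, against 17.5 and 30.5 at 0 min (2.70 ± 0.17). CXCL1 rose by 1.09 ± 0.11, CXCL2 by 1.04 ± 0.19 and IL6 by 2.46 ± 0.45, with IL6 at 29 and 11.5 normalized counts at 40 min, against 5.13 and 1.02 at 0 min. Without the pairing LIF and CXCL8 alone of these 5 were called. Among 16 NF-kB genes 1 rose and 1 fell (median 0.07): BIRC3, an inhibitor of apoptosis, rose by 0.77 ± 0.10, and NFKBIA, which holds NF-kB in the cytoplasm, fell to 564 and 575 at 40 min, against 786 and 791 at 0 min (-0.47 ± 0.08, limma adjusted p = 0.000257). The groups of BIRC3 overlapped and those of NFKBIA did not, and neither gene was called in the unpaired fit. TNFAIP3, another feedback inhibitor of NF-kB, stood at 0.35 ± 0.16 and was not called. In the prostaglandin list 2 of 7 genes rose: the receptor PTGER4, with 219 and 464 at 40 min, against 13.3 and 24.4 at 0 min (4.07 ± 0.32), and the cyclooxygenase PTGS2 (1.32 ± 0.13), whose groups overlapped and which the unpaired fit did not call. The vasoconstrictor peptide gene EDN1 had 2489.8 and 3334 at 40 min, against 198 and 233 at 0 min (3.74 ± 0.11). CXCL2 was not called without 40 min replicate 1 (0.87).

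Of 19 targets of SRF and its actin-regulated cofactor MRTF 8 rose and 0 fell, with a median log2 change of 0.40, against 8 higher and 1 lower with total-count scaling. SRF had 1651 and 2113 normalized counts at 40 min, against 781 and 758 at 0 min (1.28 ± 0.07, limma adjusted p = 1.63e-10). TUFT1 rose by 1.98 ± 0.14, the LIM protein FHL2 by 0.84 ± 0.08, the tropomyosins TPM4 and TPM1 by 0.82 ± 0.07 and 0.40 ± 0.06, the calponin CNN2 by 0.66 ± 0.09 and zyxin, ZYX, by 0.28 ± 0.06. Gamma-actin, ACTG1, had 26668 and 35554 at 40 min, against 14358 and 12659 at 0 min (1.19 ± 0.19, limma adjusted p = 0.0497); its call was lost with TMM or upper-quartile factors, with edgeR, without a filter, and when only shLAD1 libraries were fitted. Beta-actin, ACTB, stood at 0.58 ± 0.11 (limma adjusted p = 0.0879) and vinculin, VCL, at 0.10 ± 0.06, neither called. The unpaired fit called 6 genes of this list, ACTB among them, and did not call CNN2, TPM1 or ZYX. Filamin A, FLNA, the actin crosslinker, had 26002 and 24880 at 40 min and 24855 and 21901 at 0 min (0.12 ± 0.06, limma adjusted p = 0.351), and LAD1 had 1181 and 971 at 40 min and 1092 and 865 at 0 min (0.14 ± 0.05, limma adjusted p = 0.114). Neither passed the test. Of 12 hemidesmosome and basement membrane genes 2 rose, plectin, PLEC, by 0.39 ± 0.05 and the laminin chain LAMB3 by 0.59 ± 0.08; PLEC was not called in the unpaired fit. TPM1 was not called without 40 min replicate 2 (0.39), and ACTG1 was not called without 40 min replicate 1 (1.32) or 40 min replicate 2 (1.06). LAMB3 was not called without 0 min replicate 2 (0.51).

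Of 12 YAP and TEAD target genes 5 rose and 0 fell (median 0.13). CTGF, a secreted matricellular protein, had 670.0 and 2637 normalized counts at 40 min, against 6.16 and 14.2 at 0 min (6.99 ± 0.27, limma adjusted p = 1.11e-07), with replicate 2 above replicate 1 at both times; the unpaired fit did not call it. Its relative CYR61 had 4756 and 5168 at 40 min, against 421 and 439.6 at 0 min (3.52 ± 0.10). Tissue factor, F3, rose by 2.41 ± 0.26, AMOTL2 by 1.06 ± 0.05 and the YAP kinase LATS2 by 0.62 ± 0.12. CYR61 and AMOTL2 were the 2 called in the unpaired fit. RASD1, a RAS-related GTPase with 69.5 and 138 normalized counts at 40 min and 3.08 and 0 at 0 min, rested on 3 reads at 0 min against 204 at 40 min, a ratio per total reads of 64.5 (exact 95% binomial interval 21.8 to 315, counting error only). LATS2 was not called without 0 min replicate 1 (0.47) or 40 min replicate 1 (0.42), and RASD1 was not called without 0 min replicate 2 (4.36).

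Inducible kinases and pseudokinases rose in 8 of 12 cases and fell in 0 (median 0.63), with 5 called in the unpaired fit. SIK1, a salt-inducible kinase, had 729.8 and 634 normalized counts at 40 min, against 166 and 154 at 0 min (2.08 ± 0.12, limma adjusted p = 5e-10). TRIB1 rose by 2.06 ± 0.11, PLK3 by 1.69 ± 0.12, PIM1 by 1.20 ± 0.08, PIM3 by 0.68 ± 0.09 and PLK2 by 0.58 ± 0.05. Of 14 BCL2 family genes 2 rose. MCL1, which holds off apoptosis and has a short-lived transcript, had 10854 and 12520 at 40 min, against 3645 and 4280.4 at 0 min (1.56 ± 0.06, limma adjusted p = 1.02e-12), and PMAIP1, the BH3-only protein NOXA that binds it, had 459.5 and 516 at 40 min, against 176 and 186 at 0 min (1.42 ± 0.09). The groups of both genes were well apart. Of 11 p53 targets the CDK inhibitor CDKN1A (1.44 ± 0.06) and GADD45B (0.88 ± 0.11) rose, with GADD45B not called in the unpaired fit. Of 15 ATF4 stress genes 2 rose, PPP1R15A (2.35 ± 0.07), which reverses the block on translation, and TRIB3 (0.18 ± 0.05), which the unpaired fit did not call. Among 13 heat shock chaperones DNAJB1 alone was called (1.02 ± 0.06). The call of TRIB3 (0.12 to 0.24) did not hold whichever of the 4 libraries was left out.

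Of 13 ID, SMAD and BMP feedback genes 4 rose and 0 fell (median 0.42). ID1, which blocks basic helix-loop-helix factors, had 4148 and 5683 normalized counts at 40 min, against 917 and 1211 at 0 min (2.20 ± 0.20, limma adjusted p = 0.00756). TGIF1 rose by 0.79 ± 0.06, SKIL by 0.68 ± 0.06 and SMAD7 by 0.42 ± 0.11. Of 12 Notch genes 5 rose and 0 fell (median 0.14), against 3 with upper-quartile or total-count scaling and 1 in the unpaired fit. The Notch target HES1 had 5619.6 and 5920 at 40 min, against 2607 and 2895 at 0 min (1.07 ± 0.07), and the ligand JAG1 rose by 0.96 ± 0.05. In the circadian list of 13 genes, PER2 (1.05 ± 0.09), PER1 (0.87 ± 0.14), BHLHE40 (0.76 ± 0.04) and NR1D1 (0.42 ± 0.10) rose and BHLHE41 fell by 0.30 on the log2 scale; none of the 5 was called in the unpaired fit. Of 13 urokinase and matrix protease genes the urokinase PLAU (0.86 ± 0.10) and its inhibitor SERPINB2 (0.50 ± 0.07) rose; the groups of SERPINB2 overlapped and neither was called in the unpaired fit. BHLHE41 was not called without 0 min replicate 2 (-0.22) or 40 min replicate 1 (-0.25). The calls of ID1 (2.14 to 2.27) and SMAD7 (0.35 to 0.49) did not hold whichever of the 4 libraries was left out.

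Several epithelial genes with many reads rose, most of them by small amounts. KRT19, a simple-epithelium keratin, had 37712 and 41735 normalized counts at 40 min, against 33057 and 35026 at 0 min (0.22 ± 0.03, limma adjusted p = 6.2e-05). CLDN4, a tight junction claudin, had 20488 and 27829 at 40 min, against 8152 and 6262 at 0 min (1.74 ± 0.22, limma adjusted p = 0.025). SFN rose by 0.52 ± 0.05, TM4SF1 by 0.38 ± 0.06, LMNA by 0.17 ± 0.04 and ANXA1 by 0.15 ± 0.04, while the tubulin TUBB fell by 0.13 on the log2 scale. Among the markers of cell type, 4 of 12 basal genes (KRT17, FOXC1, KRT5 and KRT6B) and 3 of 6 pan-epithelial markers (KRT8, KRT18 and KRT19) rose, and of the luminal genes FOXA1 rose and GATA3 fell by 0.29. The groups of KRT5, KRT6B, KRT8, KRT18 and FOXA1 overlapped. The summed basal markers were 87246 to 131968 at 40 min, against 73910 to 99218 at 0 min. The summed pan-epithelial markers were 95776 to 102527 at 40 min, against 81558 to 92802 at 0 min, and the summed luminal ones 10768 to 13119 at 40 min, against 10767 to 12209 at 0 min; their part in the response was not tested. KRT17 had 8384 and 21925 at 40 min, against 3812 and 6818 at 0 min (1.41 ± 0.16). CLDN4 was the only one of these that the unpaired fit called. CLDN4 was not called without 0 min replicate 2 (1.45), and TM4SF1 was not called without 0 min replicate 2 (0.31) or 40 min replicate 1 (0.31). LMNA was not called without 0 min replicate 2 (0.13) or 40 min replicate 2 (0.15), and ANXA1 was not called without 0 min replicate 1 (0.17), 0 min replicate 2 (0.13) or 40 min replicate 1 (0.092). TUBB was not called without 0 min replicate 1 (-0.11), 0 min replicate 2 (-0.15) or 40 min replicate 1 (-0.08).

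The falls were small and few. COLCA1 fell to 181 and 205 normalized counts at 40 min, against 367 and 508 at 0 min (-1.16 ± 0.12, limma adjusted p = 2.07e-07). HOTAIR, a long noncoding RNA of the HOXC cluster, fell to 174 and 118 at 40 min, against 283 and 304 at 0 min (-1.03 ± 0.13, limma adjusted p = 1.75e-05). OTX1, a homeobox factor, fell to 156 and 178 at 40 min, against 297 and 306 at 0 min (-0.85 ± 0.11, limma adjusted p = 4.11e-06). These 3 were the falls called in every alternative, the unpaired fit included. ARRDC3, an alpha-arrestin, fell to 309 and 261 at 40 min, against 487 and 532 at 0 min (-0.84 ± 0.10). SKIDA1 (-0.81 ± 0.13), PPP1R3E (-0.79 ± 0.14), ALKBH4 (-0.68 ± 0.11), LOC730101 (-1.13 ± 0.21), RPARP-AS1 (-0.74 ± 0.17), HOXB5 (-0.72 ± 0.21), LINC01011 (-0.70 ± 0.19) and MAP10 (-0.67 ± 0.16) followed. Of 24 growth-factor-repressed and FOXO-type genes 0 rose and 2 fell (median -0.04), ARRDC3 and TXNIP, against 3 lower with total-count scaling and 0 in the unpaired fit. TXNIP, an inhibitor of glucose uptake, fell to 1993 and 2136 at 40 min, against 2260 and 2674 at 0 min (-0.25 ± 0.07, limma adjusted p = 0.0418). PPP1R3E was not called without 0 min replicate 2 (-0.57), and LOC730101 was not called without 0 min replicate 2 (-1.02) or 40 min replicate 2 (-0.97). RPARP-AS1 was not called without 0 min replicate 1 (-0.80), 0 min replicate 2 (-0.68) or 40 min replicate 1 (-0.64), and HOXB5 was not called without 0 min replicate 2 (-0.35), 40 min replicate 1 (-0.93) or 40 min replicate 2 (-0.51). The calls of LINC01011 (-0.85 to -0.55), MAP10 (-0.76 to -0.57) and TXNIP (-0.32 to -0.19) did not hold whichever of the 4 libraries was left out.

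Some of the fallen genes were long noncoding RNAs. By RefSeq type, 13 of the 102 fallen genes with a type (12.7%) and 9 of the 558 risen ones (1.61%) were of that type, beside 4.95% of all tested genes with a type. Of 19 snoRNA host genes 0 rose and 3 fell (median -0.15): SNHG1 fell to 643 and 571 normalized counts at 40 min, against 780.4 and 793 at 0 min (-0.38 ± 0.07, limma adjusted p = 0.000652), and SNHG7 and SNHG19 had changes of -0.29 ± 0.08 and -0.50 ± 0.14, none called in the unpaired fit. Of 14 microRNA host genes 3 rose: MIR22HG had 580.2 and 640.2 at 40 min, against 148 and 159.8 at 0 min (1.98 ± 0.09, limma adjusted p = 6.09e-14), and MIR17HG and MIRLET7DHG, with fewer reads, rose by 0.83 ± 0.21 and 0.84 ± 0.22; total-count scaling called 3 of this list higher and 2 lower. Among 341 RNAs named as antisense OSMR-AS1 rose, on 10 reads at 40 min against 1 at 0 min (ratio per total reads 9.49, exact 95% binomial interval 1.35 to 412; not called by edgeR or DESeq2), and ZNF436-AS1 and RPARP-AS1 fell. Among 144 named LINC LINC00312 rose (1.91 ± 0.52) and LINC01011 and LINC01355 fell. The unpaired fit called none of these antisense and LINC RNAs. ZNF436-AS1 fell by 1.39 on the log2 scale beside its partner ZNF436 (-0.55 ± 0.09); the use of strand in counting is not given, so reads of such pairs cannot be told apart. Of 444 genes named ZNF, ZNF436-AS1 among them, 15 rose and 5 fell, against 10 and 12 with total-count scaling. They made up 2.67% of the risen and 4.76% of the fallen genes, beside 3.18% of all genes tested, so these counts are no result about ZNF genes. ZNF750, an epidermal factor, rose by 1.31 ± 0.16. SNHG1 was not called without 40 min replicate 2 (-0.26), and SNHG7 was not called without 0 min replicate 1 (-0.24), 0 min replicate 2 (-0.33) or 40 min replicate 1 (-0.18). MIR17HG was not called without 0 min replicate 1 (0.52), 40 min replicate 1 (0.66) or 40 min replicate 2 (1.0), and MIRLET7DHG was not called without 0 min replicate 1 (0.66), 0 min replicate 2 (1.02) or 40 min replicate 1 (0.61). LINC00312 was not called without 0 min replicate 1 (1.85), 0 min replicate 2 (1.97) or 40 min replicate 2 (1.26), and ZNF436-AS1 was not called without 0 min replicate 1 (-1.30). The call of SNHG19 (-0.60 to -0.39) did not hold whichever of the 4 libraries was left out.

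At most 1 gene was called in each list of protein synthesis and cell division, which is read against the 4.77% called over all genes tested and is no result about these lists. None of 20 cytosolic ribosomal protein genes was called, with log2 changes between -0.11 and -0.024 and a median of -0.07, although total-count scaling called 6 of them lower. Of 22 ribosome biogenesis genes NOP16 rose (0.33 ± 0.10), and of 20 mitosis genes KIF23 (0.20 ± 0.05); neither call held in the unpaired fit or with total-count scaling. The median genomic span of the risen genes was 18678 bases with 6 exons, that of the fallen genes 8335 bases with 4 exons and that of all genes tested 30636 bases with 8 exons (GENCODE 29). Among risen genes the median span was 6262 bases for those above 4-fold, 11136 bases for 2- to 4-fold and 25718 bases below 2-fold. NOP16 was not called without 0 min replicate 2 (0.19), 40 min replicate 1 (0.28) or 40 min replicate 2 (0.38). The call of KIF23 (0.19 to 0.21) did not hold whichever of the 4 libraries was left out.

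Some risen genes were neighbours in the order of tested genes along a chromosome. Untested genes can lie between such neighbours, and the distances between them were not examined. Of the 558 risen genes placed in the annotation 75 (13.4%) lay next to another risen gene, in 40 pairs. Of all 13683 tested genes with a placed neighbour 1069 (7.81%) lay next to a risen gene, and the difference between these shares was not tested. Of the fallen genes 1 pair, ZNF436 and ZNF436-AS1, was adjacent. The pairs named here were picked after their values were seen. FOSL1 stood beside CCDC85B, which had 779 and 694 normalized counts at 40 min, against 394 and 328 at 0 min (1.03 ± 0.08). The histone demethylase gene KDM6B (1.24 ± 0.06) lay beside TMEM88 (2.83 ± 0.52), and the ligand genes EPGN, EREG and AREG lay in a row, as did the keratins KRT16 (0.54 ± 0.07) and KRT17. EDN1 and NEDD9 (1.82 ± 0.15) lay on either side of HIVEP1. KRT16, KRT17 and NEDD9 were not called in the unpaired fit. Overlap of counted reads between neighbours was not tested.

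The 240 min libraries of the same cells show where these transcripts stood later. They are given side by side, since the comparisons share the 0 min or the 40 min libraries. Between 0 and 240 min 6450 genes were called (46.2%), against 2585 in the unpaired fit, and between 40 and 240 min 6218 (44.6%), against 2288. FOS stood at 269 and 292 normalized counts at 0 min, 15050 and 16135 at 40 min and 484 and 424 at 240 min. NR4A1 stood at 76.0 and 116 at 0 min, 3892 and 6065 at 40 min and 60.4 and 119 at 240 min, a change of -0.14 ± 0.11 between 0 and 240 min that was not called. ATF3 stood at 391 and 275 at 0 min, 3257 and 3042 at 40 min and 189 and 103 at 240 min, and was lower at 240 than at 0 min (-1.22 ± 0.24). NR4A2 (-0.81 ± 0.19) and PER1 (-0.63 ± 0.14) were likewise lower at 240 than at 0 min. FOS was still called higher at 240 than at 0 min (0.69 ± 0.10), though far below its 40 min level. FOSL1, PHLDA1 and FHL2 had higher counts at 240 than at 40 min in both libraries. FOSL1 stood at 113 and 70.2 at 0 min, 1537 and 2015 at 40 min and 2557 and 3319.8 at 240 min. PHLDA1 stood at 1110 and 569.9 at 0 min, 2568 and 1807 at 40 min and 6567 and 5587 at 240 min. FHL2 stood at 296 and 299 at 0 min, 464 and 611 at 40 min and 1155 and 1262 at 240 min, with each time above the one before. For PHLDA1 (1.49 ± 0.18), FHL2 (1.18 ± 0.08), CXCL1 (2.37 ± 0.11) and AREG (1.29 ± 0.38) the change between 40 and 240 min was a further rise, while that of FOSL1 (0.73 ± 0.36) was not called. NFKBIA was lowest at 40 min, with 786 and 791 at 0 min, 564 and 575 at 40 min and 985 and 1259.7 at 240 min. SNHG1 had the same order, with 780.4 and 793 at 0 min, 643 and 571 at 40 min and 1104 and 1199 at 240 min. TXNIP fell further, with 2260 and 2674 at 0 min, 1993 and 2136 at 40 min and 779 and 852 at 240 min. LAD1 itself stood at 1092 and 865 at 0 min, 1181 and 971 at 40 min and 2535 and 2297 at 240 min, a rise of 1.31 ± 0.05 between 0 and 240 min.

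**Figure D4:**
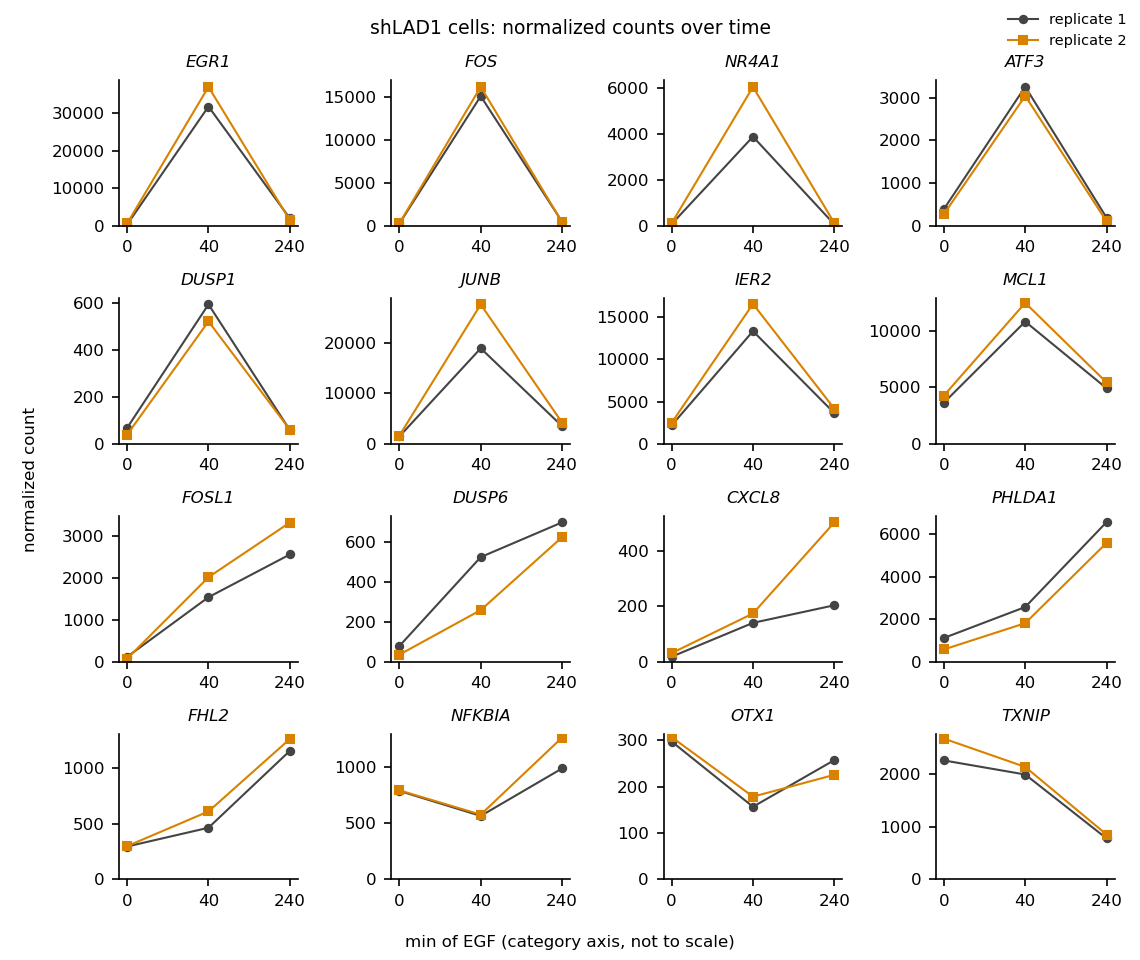
Normalized count (y axis, each panel from 0) of 16 genes in shLAD1 cells at 0, 40 and 240 min of EGF (category axis), with 1 line for replicate 1 and 1 for replicate 2. EGR1, FOS, NR4A1, ATF3, DUSP1, JUNB, IER2 and MCL1 are highest at 40 min, FOSL1, DUSP6, CXCL8, PHLDA1 and FHL2 are highest at 240 min, NFKBIA and OTX1 are lowest at 40 min, and TXNIP is lowest at 240 min.

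Scramble cells, measured in libraries of their own, also gave mostly rises at 40 min. There 444 genes rose and 86 fell (3.18% and 0.616%, together 3.8%), and 119 were called in the unpaired fit and 280 to 303 whichever of the 4 scramble libraries was left out. The 365 genes that rose in both were 65.1% of the risen genes of shLAD1 cells and 82.2% of those of scramble cells, and 40 fell in both. Of the 561 genes risen in shLAD1 cells 552 had a positive change in scramble cells, with a median of 0.37, and of the 105 fallen genes 101 a negative one, with a median of -0.24. A different number of calls is not a test of a difference. The difference of the responses, shLAD1 minus scramble, was called for 11 genes (0.0789%), 10 higher and 1 lower (0.0717% and 0.00717%), with 590 at an unadjusted p under 0.05. The unpaired limma fit called 0, with 99 at an unadjusted p under 0.05, while edgeR called 13 genes, 9 of these 11 among them, and DESeq2 11 genes, 8 of these 11 among them. The count was 3 without scramble 0 min replicate 2, 5 without scramble 40 min replicate 2 and 42 without shLAD1 40 min replicate 2.

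The difference of responses with the smallest p was that of LIF. In shLAD1 cells it had 690.3 and 1077 normalized counts at 40 min, against 47.2 and 66.2 at 0 min, and in scramble cells 739 and 773 at 40 min, against 135 and 149 at 0 min. The 40 min levels of shLAD1 and scramble cells overlapped, and the 0 min levels were lower in both shLAD1 libraries. The difference was 1.52 ± 0.14 on the log2 scale (limma adjusted p = 6.2e-06). IER3 rose by 2.93 in shLAD1 cells and by 2.37 in scramble cells, a difference of 0.57 ± 0.07 (limma adjusted p = 0.000643). CXCL8 had 140.0 and 174 at 40 min, against 17.5 and 30.5 at 0 min, in shLAD1 cells and 236 and 186 at 40 min, against 119 and 109 at 0 min, in scramble cells, again with the lower 0 min levels in shLAD1 cells (difference 1.83 ± 0.24, limma adjusted p = 0.00146). SLC20A1, a phosphate transporter, had similar levels at 0 min, with 1075 and 1031 in shLAD1 cells and 1033 and 997 in scramble cells, and at 40 min 2293 and 2290.5 in shLAD1 cells and 1632 and 1641 in scramble cells (difference 0.43 ± 0.07, limma adjusted p = 0.0101). SIK1 had 729.8 and 634 at 40 min, against 166 and 154 at 0 min, in shLAD1 cells and 385 and 326 at 40 min, against 188 and 139.8 at 0 min, in scramble cells (difference 0.96 ± 0.18, limma adjusted p = 0.0415). The difference was 0.82 ± 0.16 for MAFF, 0.41 ± 0.08 for LPIN1, 0.54 ± 0.08 for the LIM protein CSRP1, 0.55 ± 0.09 for the metallothionein MT1X and -0.52 ± 0.09 for the RNA export factor ALYREF. For MT1G, another metallothionein, it was 3.07 ± 0.43, with 15.4 and 31.4 at 40 min, against 5.13 and 24.4 at 0 min, in shLAD1 cells and 8.73 and 17.5 at 40 min, against 34.2 and 105 at 0 min, in scramble cells. Of the 11 genes edgeR did not call MAFF or CXCL8, and DESeq2 did not call MAFF, LPIN1 or SLC20A1. MAFF, LPIN1 and SIK1 are beyond the 8 smallest p and were added after their values were seen. Metallothionein genes are near-identical copies, so their reads may be split between them. The differences for LAD1 (0.14 ± 0.07) and EGFR (-0.035 ± 0.11) were not called. Of the 11 genes LIF and IER3 alone were called whichever of the 8 libraries was left out.

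**Figure D5:**
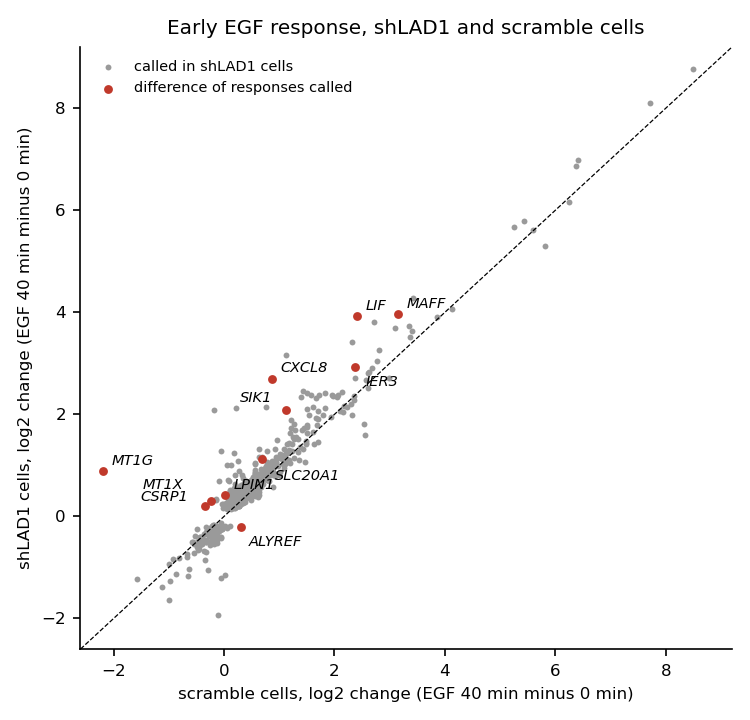
Log2 change at 40 min of EGF minus 0 min in shLAD1 cells (y axis) against that in scramble cells (x axis) for the genes called in shLAD1 cells (grey) and the 11 genes whose difference of responses was called (red); the dashed line marks equal changes. Most points lie near the line, LIF and CXCL8 lie above it and ALYREF below.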

How the data were processed

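RNA-seq libraries of HCC70 cells, 2 for each of 6 combinations of shRNA and EGF time, were measured as 1 table. The authors' submission names STAR, DESeq2 and hg19 in the submitters' processing notes, with versions not given in the sources used here, and the counting tool and strand setting are likewise not given. The deposited signal values are the reads of each gene, scaled by 1 size factor for each library (normalized counts). They are whole multiples of 1 step per library for 100% of values within 0.001, so whole reads were recovered. The deposited log2 fold change, the deposited score (Wald statistic) and the deposited p-values carry no named contrast and were not used.

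A gene was tested (13950 of 26365 in the table) where 2 or more libraries held 10 or more normalized counts. limma 3.58.1 in R 4.3.3 (trend, robust) was fitted to log2(normalized count + 1) of all 12 libraries. The fit had a block for each combination of shRNA and replicate number and a term for shRNA by time, leaving 4 residual degrees of freedom. Adjusted p-values are Benjamini-Hochberg over all genes tested. The comparison of shLAD1 with scramble cells at 0 min has no block. Replicate numbers come from the sample titles, and each number has 1 prefix in the column names and descriptions throughout. The deviations of same-numbered shLAD1 libraries at 40 and 0 min correlated with r = 0.734, those of all same-numbered pairs of 1 shRNA with 0.645 to 0.734 (6 pairs) and those across shRNAs with 0.247 to 0.307 (9 pairs). Library pairs of 1 group differed beyond counting noise (chi-square per degree of freedom 9.04 to 22.6).

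The comparisons, gene lists and paired fit were chosen with earlier results of these data known. Named are, among called genes with a mean of at least 50 normalized counts whose groups do not overlap, the 20 largest rises, 12 largest falls and 12 highest means. Further named are up to 4 called members of each list by smallest adjusted p (without the mean and overlap conditions), all members of lists of 7 genes or fewer, LAD1, EGFR and FLNA, and the 8 smallest p of the difference of responses. Others are named as list members or where said to be outside the rule. 1 gene list and 1 marker gene are not reported here. The recovered reads were also tested with edgeR 4.0.16 and DESeq2 1.42.0. On simulated counts of 13733 genes the paired shLAD1 fit called 100 of 100 genes changed by 2-fold, 100 of 100 changed by 4-fold and 9 unchanged genes. The unpaired fit called 92, 100 and 0 of them. The changed genes had a mean of at least 50 normalized counts over all 12 libraries. An offset shared by libraries of the same shRNA and number, which the paired fit assumes, was built in, so the simulation cannot rank the fits. It held no smaller change, so it does not bear on the 337 of 561 risen genes that rose by less than 1.5-fold.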

Additional observations from a re-analysis of the deposited data

Results flagged for a closer look

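A test of the difference itself called 11 genes whose early change in shLAD1 cells differed from that in scramble cells. The 8 with the smallest p are given here. The unpaired fit called 0 genes. The differences, shLAD1 minus scramble on the log2 scale, were 1.52 for LIF, 0.57 for IER3, 3.07 for MT1G, 0.54 for CSRP1, 1.83 for CXCL8, 0.55 for MT1X, 0.43 for SLC20A1 and -0.52 for ALYREF. Both shLAD1 libraries at 0 min lay below both scramble libraries at 0 min for LIF, IER3, CXCL8 and MT1G, and the part of these 0 min levels in the differences was not tested. CXCL8 was not called by edgeR, and SLC20A1 was not called by DESeq2.

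LIF and IER3 were called in each of the 8 fits that left out 1 library. MT1G was not called without scramble 0 min replicate 2 (2.78). CSRP1 was not called without scramble 0 min replicate 2 (0.42) or scramble 40 min replicate 2 (0.47). CXCL8 was not called without scramble 0 min replicate 2 (1.75), shLAD1 0 min replicate 1 (1.85) or shLAD1 0 min replicate 2 (1.81). MT1X lost its call in 4 of the 8 fits (0.43 to 0.57), SLC20A1 in 6 (0.39 to 0.46) and ALYREF in 6 (-0.54 to -0.36).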

How the results depend on the processing

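Without the replicate block 145 genes were called in the early response of shLAD1 cells, 119 in that of scramble cells, 0 in the difference of the responses, 2585 between 0 and 240 min and 2288 between 40 and 240 min. With a replicate block by number only the counts were 274, 202, 0, 4249 and 4004. With DESeq2 the counts were 403 for the early response of shLAD1 cells and 336 for that of scramble cells. Leaving out 1 library gave 381 to 493 calls in the early response of shLAD1 cells, 280 to 303 in that of scramble cells and 3 to 42 in the difference. It gave 4580 to 5679 between 0 and 240 min and 4611 to 5434 between 40 and 240 min. The lower LAD1 level at 0 min was called in all of them, with log2 values of -2.83 to -2.50. Fits that left out a library had fewer samples; for the other alternatives the cause was not tested.

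Of 151 values of named genes, 77 kept their side of the threshold without the replicate block and 74 did not, 127 did with DESeq2, 141 with edgeR, 144 with total-count scaling and 116 to 126 without 1 library. In each of the 18 alternatives 123 of the 561 risen and 3 of the 105 fallen genes were called. The directions that changed were those of genes that were not called. Leaving out 1 library gave log2 values of -0.22 to 0.22 for IER5L, -0.16 to 0.071 for EGFR and -0.084 to 0.070 for ERBB2, and DESeq2 gave 0.0012 for IER5L.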
